A study of Saccharomyces cerevisiae with 4 samples.

Results

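The hexose carrier genes HXT1 to HXT7 and GAL2 and the glucose sensor genes SNF3 and RGT2 of budding yeast were described in meiotic cultures. The 10 genes were taken by name from the deposited gene tables, out of 6664 nuclear genes. All 10 were present, and 8 had a mean level of at least 1 TPM (reads per length of coding sequence, scaled to the same total in each library), the minimum for a test. HXT6 and GAL2 did not reach it. The cells were Saccharomyces cerevisiae SK1, a background that sporulates efficiently. Both strains lacked NDT80, which encodes the transcription factor needed to leave meiotic prophase, and the strain titled ndt80pch2 also lacked PCH2, which encodes an AAA+ ATPase of meiotic chromosomes. Cultures passed from glucose medium to an acetate medium and were collected after 4 h at 30 °C in 0.3% potassium acetate, with 2 samples per strain. The sample titles name the PCH2 deletion, while the strain note of all 4 samples reads ndt80 only. PCH2 reads numbered 710 and 776 with ndt80 and 0 in both libraries of ndt80pch2, while NDT80 was at 0 reads throughout.

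Yeast takes up glucose by facilitated diffusion through a family of related membrane carriers that differ in affinity. Snf3 and Rgt2 resemble the carriers but act as receptors: with glucose bound, they lead through casein kinase Yck1 and the ubiquitin ligase subunit Grr1 to the loss of Mth1 and Std1, the partners with which the repressor Rgt1 holds HXT genes off. In a second branch, the repressor Mig1 keeps several carrier genes off while glucose is plentiful. The kinase Snf1 inactivates Mig1 when glucose is scarce. Sporulation is started in a medium that holds a non-fermentable carbon source in place of glucose.

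The deposited tables hold 1 value per gene and strain. For 6610 of the 6664 nuclear genes, values could be resolved into whole reads of 2 libraries per strain. The libraries are called A and B for ndt80 and C and D for ndt80pch2, letters that stand for no replicate number. In the ndt80 table, 6553 rows average 2 different nuclear genes, 1 per library, which were separated before use. A library held 1707132 to 2361685 recovered reads over nuclear genes. Nothing in the labels states that replicates were separate cultures, so a p-value reflects variation among these samples alone, possibly technical. In bulk RNA, fewer cells of a kind and less RNA per cell cannot be told apart. Library D differed from C by a median absolute log2 difference of 0.20 over the 5748 tested genes, against 0.13 between A and B. The 10 meiotic prophase markers summed to 5390 and 5837 TPM in ndt80 and 5308 and 6216 TPM in ndt80pch2. Among them, 1, the recombinase gene DMC1, was lower in ndt80pch2 (limma-voom adjusted p = 0.000467, limma-trend adjusted p = 0.0695). By log2 fold change, 9 of the 10 lay above the median of all tested genes and 1 below it. Without overlap between the strains, 2 were higher (REC8 and MEK1) and 1 lower (DMC1), beside 9.38% and 42.4% of all tested genes. The 10 middle sporulation markers summed to 569 and 581 TPM against 507 and 537 TPM, and the 5 vegetative G1 markers to 78.9 and 69.8 TPM against 70.0 and 67.8 TPM. The 9 haploid and mating markers with values summed to 75.8 and 81.1 TPM against 61.9 and 53.6 TPM, with MFA1 and MFA2 at 0 reads. The part of these markers in the results below was not tested.

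Among the 10 genes, 6 lie in tight clusters (R64 coordinates). On chromosome VIII, HXT4 (YHR092C, 287081 to 288811), HXT1 (YHR094C, 290913 to 292625) and HXT5 (YHR096C, 294669 to 296447) follow each other on the minus strand. AHT1 lies between HXT4 and HXT1, and YHR095W between HXT1 and HXT5. On chromosome IV, HXT7 (YDR342C, 1154216 to 1155928), HXT6 (YDR343C, 1159608 to 1161320) and HXT3 (YDR345C, 1162957 to 1164660) are also on the minus strand, with YDR344C between HXT6 and HXT3. The other members stand alone on the plus strand. HXT2 (YMR011W) is at 288079 to 289704 of chromosome XIII between YMR010W and CLU1. GAL2 (YLR081W) is at 290212 to 291936 of chromosome XII between EMP46 and SRL2. SNF3 (YDL194W, 111580 to 114234) and RGT2 (YDL138W, 213351 to 215642) are both on chromosome IV, the first beside SEC31 and NUS1 and the second beside SCM3 and ARF2. No member overlapped another listed gene.

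The coding sequences are related to different degrees, which bears on how reads can be assigned. HXT6 and HXT7 differed at 3 of 1713 bases, and their longest identical stretch was 1631 bases. The next closest pairs were HXT1 with HXT3 at 83.3% of aligned bases and HXT4 with HXT6 at 83.2%. SNF3 and RGT2 shared 70.4%, and their coding sequences of 2655 and 2292 bases are longer than those of the carriers, which span 1626 to 1779 bases, and both sensors are known for a long cytoplasmic tail. The stretch near the end of the HXT6 and HXT7 coding sequences that holds every difference between them is shown to make plain how few bases separate the copies. It covers coding bases 1609 to 1698 of the R64 genome on the minus strand, chrIV:1159623-1159712 for HXT6 and chrIV:1154231-1154320 for HXT7, and capitals mark the differing bases.
HXT6: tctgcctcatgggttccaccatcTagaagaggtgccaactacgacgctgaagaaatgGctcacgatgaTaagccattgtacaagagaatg
HXT7: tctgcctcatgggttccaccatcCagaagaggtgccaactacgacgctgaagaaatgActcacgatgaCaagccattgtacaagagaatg
Counted from 1 at the start codon, with the HXT6 base given first, the differences are T1632C, G1666A and T1677C. No read was counted under HXT6 in any library. HXT7 had 1423, 1293, 924 and 741 reads in libraries A to D. The sources used here do not give the treatment of reads matching both copies, and the printed bases are those of the reference strain, not of SK1. Reads of HXT6 transcripts may have been counted under HXT7 or dropped, so the 0 sets no upper limit on the HXT6 level. If reads matching both copies were dropped, HXT7 was undercounted as well. The counted reads of the copies sum to the HXT7 count, which may lie below their combined level.

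By counted reads, HXT5 and HXT2 were by far the most abundant members in every library. Their order against HXT6 and HXT7 is not settled if reads matching both of those copies were dropped. HXT5, a carrier of moderate affinity known for its expression in slowly growing, starved and sporulating cells, stood at 3734, 3894, 4596 and 5925 TPM in libraries A to D. That placed HXT5 at rank 10 to 20 of the 6610 genes with values. HXT2, a higher-affinity carrier induced when glucose is scarce, stood at 2255, 2089.5, 2564 and 1964 TPM, at rank 31 to 51.

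**Figure D1:**
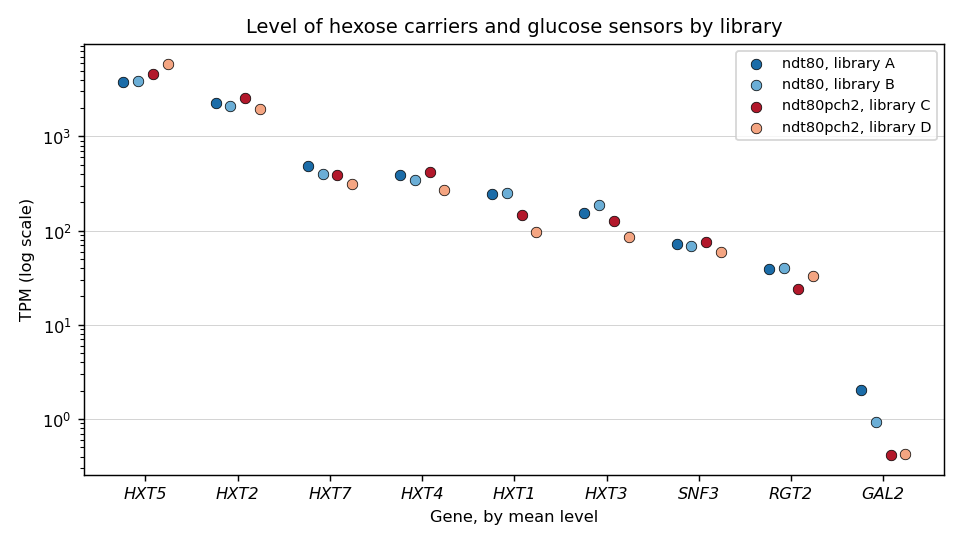
Level of each member in TPM (log scale) in the libraries of ndt80 (A, B) and ndt80pch2 (C, D), 1 point per library, ordered by mean level. HXT5 and HXT2 lie at 1964 TPM or above in every library and GAL2 at or under 2.02 TPM; HXT6, at 0 reads, cannot be drawn on a log axis.

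By counted reads, HXT7, HXT4, HXT1 and HXT3 formed a middle group. HXT7, a high-affinity carrier repressed by glucose, had 442 ± 57.9 TPM in ndt80 and 351 ± 48.6 TPM in ndt80pch2 (SD, n = 2). HXT4, also a higher-affinity carrier, had 367 ± 27.4 and 344 ± 107 TPM. HXT1, the low-affinity carrier of glucose-rich cells, had 248 ± 3.77 and 122 ± 36.7 TPM. HXT3, another low-affinity carrier, had 171 ± 22.6 and 107 ± 29.4 TPM. Within ndt80 the libraries of no pair of neighbours in this order overlapped. Within ndt80pch2, HXT4 (419 and 268 TPM in libraries C and D) overlapped HXT7 (385 and 316 TPM), and HXT1 (148 and 96.0 TPM) overlapped HXT3 (127 and 85.8 TPM), so their order there did not exceed the spread.

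The sensor genes were expressed at lower levels than these 6 carriers. SNF3, the sensor that responds to low glucose, had 69.9 ± 2.37 TPM in ndt80 and 67.9 ± 11.9 TPM in ndt80pch2 (SD, n = 2). RGT2, the sensor of high glucose, had 39.7 ± 0.907 and 28.6 ± 6.05 TPM. The median of all tested genes was 50.2 to 58.2 TPM per library, so SNF3 lay above it and RGT2 below it in all 4 libraries. GAL2, the galactose permease, which galactose induces, had 6 and 3 reads in ndt80 and 1 read in each ndt80pch2 library. The level was 2.02 and 0.924 TPM in libraries A and B and 0.414 and 0.424 TPM in C and D, so the ndt80pch2 values lie under the 3-read floor of 1.24 and 1.27 TPM and no fold is given.

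As a share of the summed TPM of the 8 carrier genes, HXT5 made up 51.4% and 54.3% in libraries A and B and 55.8% and 68.5% in C and D. HXT2 made up 31.1%, 29.1%, 31.1% and 22.7% in libraries A to D. HXT5 and HXT2 together held 82.5%, 83.4%, 86.9% and 91.1%. HXT1 made up 3.38% and 3.49% in ndt80 against 1.80% and 1.11% in ndt80pch2. The shares of HXT5 and of HXT1 did not overlap between the strains, but for HXT5 the gap between B and C was smaller than that between C and D. The summed level was 7261 and 7171 TPM in ndt80 and 8240 and 8655 TPM in ndt80pch2. If reads matching both HXT6 and HXT7 were dropped, this sum is too low and the shares of the other carriers are too high.

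**Figure D2:**
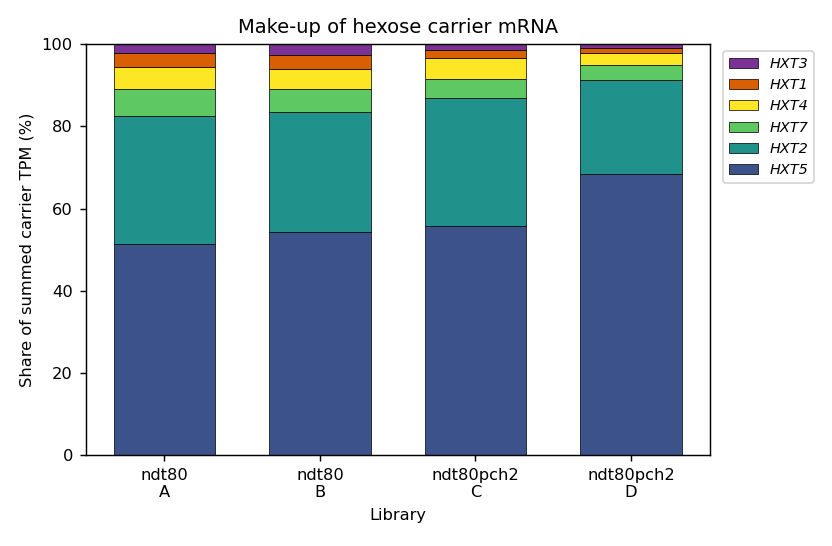
Share of the summed TPM of the carriers (%) held by each HXT gene in each library, stacked from 0 to 100%; HXT6 had 0 reads and GAL2, at 0.0279% or less, is not drawn. HXT5 is the largest part of every bar, with 51.4% in library A and 68.5% in library D.

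Strains were compared with limma-trend on log2(TPM + 1), fitted over all 5748 tested genes with Benjamini-Hochberg adjustment. The comparison of ndt80pch2 with ndt80 addresses the loss of Pch2 in cells held in prophase. None of the 8 tested members was called at an adjusted p under 0.05, against a background of 0.0174% of all tested genes. On this scale the fold change of low genes is understated. By limma-voom on the recovered reads, 1 member was called, HXT1, against a background of 0.487% of tested genes in either direction and 0.157% lower. At an unadjusted p under 0.05 by limma-trend, 4 members were lower (HXT1, HXT3, HXT7 and RGT2) and 1 was higher (HXT5). The same counts over all tested genes were 13.1% lower and 2.68% higher. The members were chosen with earlier results of these data known, so their counts are no test against these shares. The median log2 fold change of all tested genes was -0.15. Fold changes below are therefore given relative to that median, and p-values refer to the fold change without that subtraction. With libraries rescaled by median-of-ratios factors, that median was -0.0047. The limma-trend adjusted p was then 0.647 for HXT7 and 0.574 for RGT2, against 0.313 for both without rescaling. For HXT1, HXT3 and HXT5 it was 0.282, 0.442 and 0.340 with rescaling. Relative to the median, the limma-trend intervals of HXT7 (-0.52 to 0.14) and RGT2 (-0.79 to 0.14) included 0. Those of HXT1, HXT3 and HXT5 did not. For the 8 members the median was -0.08 on this scale, where all genes have 0 by construction, and the range ran from -0.90 to 0.60.

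**Figure D3:**
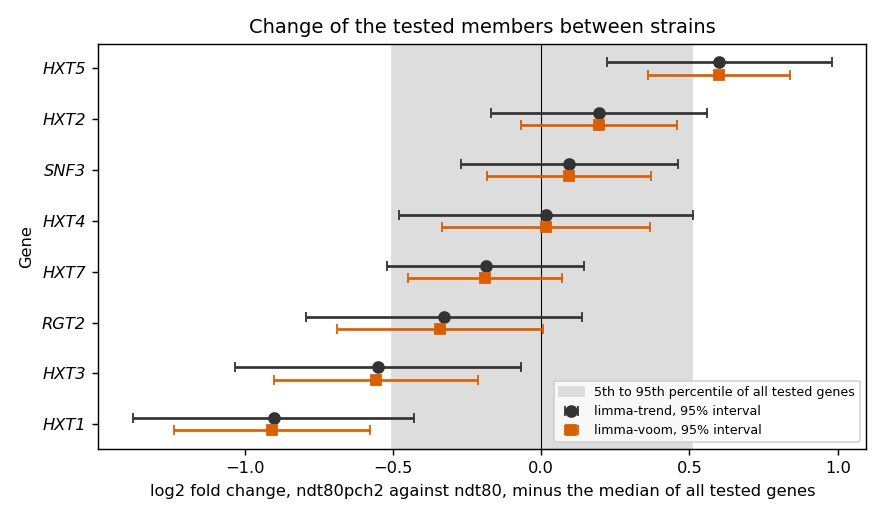
log2 fold change of each tested member, ndt80pch2 against ndt80, minus the median of all tested genes, by limma-trend (circles) and limma-voom (squares). Bars are 95% intervals with the median taken as fixed, and the grey band spans the 5th to 95th percentile of all tested genes (-0.50 to 0.51). HXT1 and HXT3 lie to the left of the band and HXT5 to its right.

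HXT1 showed the largest difference between the strains among the members. Its level was 245 and 250.4 TPM in ndt80 and 148 and 96.0 TPM in ndt80pch2, from 722, 807, 355 and 225 reads. The strains' libraries did not overlap, and the gap between the strains was wider than that between C and D. Relative to all genes the log2 fold change was -0.90 ± 0.20 (SE; limma-trend adjusted p = 0.253), or 0.535 of the ndt80 level. Of all tested genes, 1.32% were lower by at least as much. limma-voom gave -0.91 ± 0.15 and called HXT1 (adjusted p = 0.00766). That call was lost without library A (adjusted p = 0.671) and without B (0.638), with the lone ndt80 library assumed to vary like the others, and kept without C (8.87e-10, in a fit that called 409 genes) or D (4.02e-05, 119 genes). The limma-voom log2 fold change was -0.93 ± 0.33 (SE) without A and -0.89 ± 0.34 without B, so its size was close to that with all libraries and its SE was larger. By limma-trend the change was -0.61 without library D and -1.20 without C, so the size depended on which ndt80pch2 library was used.

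HXT3 was lower in the same direction with a smaller difference. Its level was 155 and 187 TPM in ndt80 and 127 and 85.8 TPM in ndt80pch2, and the strains' libraries did not overlap. The gap between libraries A and C was smaller than that between C and D. The log2 fold change relative to all genes was -0.55 ± 0.20 (SE; limma-trend adjusted p = 0.286, limma-voom adjusted p = 0.0873), and HXT3 was called by neither tool. Without library D the limma-trend value was -0.29, and without C it was -0.83.

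HXT5 had higher values in ndt80pch2. Its 3734 and 3894 TPM in ndt80 lay below the 4596 and 5925 TPM in ndt80pch2, from 11425 to 14419 reads per library. The gap between libraries B and C was smaller than that between C and D. The log2 fold change relative to all genes was 0.60 ± 0.16 (SE; limma-trend adjusted p = 0.290, limma-voom adjusted p = 0.0767), or 1.52-fold, and it was called by neither tool. Of all tested genes, 3.86% were higher by at least as much. Without library D the value was 0.40, and without C it was 0.79.

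HXT1 and HXT5 are neighbouring carriers in the chromosome VIII cluster and differed in opposite directions, while HXT4 of the same cluster did not separate the strains. The ratio of HXT5 to HXT1 TPM, which does not depend on how libraries are scaled, was 15.2 and 15.6 in ndt80 and 31.1 and 61.7 in ndt80pch2. The ratio was chosen after the values were seen and was not tested. HXT4 stood at 387 and 348 TPM in ndt80 against 419 and 268 TPM in ndt80pch2, and the libraries overlapped. Its log2 fold change relative to all genes was 0.02 ± 0.20 (SE; limma-trend adjusted p = 0.754), and the sign turned without library B, without C and with no filter on low values.

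HXT2 and HXT7 differed little in relation to their spread. HXT2 overlapped between the strains, with a log2 fold change relative to all genes of 0.20 ± 0.15 (SE; limma-trend adjusted p = 0.878) and a 95% interval from -0.17 to 0.56. Its value was 0.01 without library C and 0.37 without D. HXT7 had 483 and 401 TPM in ndt80 and 385 and 316 TPM in ndt80pch2, which did not overlap. Its log2 fold change relative to all genes was -0.19 ± 0.14 (SE; limma-trend adjusted p = 0.313), and the gap between library B and library C was smaller than the difference within either strain. Its value was -0.056 without library A and -0.063 without D, against -0.32 without B and without C.

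Of the sensors, RGT2 had lower values in ndt80pch2 and SNF3 overlapped. RGT2 had 39.1 and 40.4 TPM in ndt80, from 154 and 174 reads, and 24.3 and 32.9 TPM in ndt80pch2, from 78 and 103 reads. The gap between libraries A and D was smaller than that between C and D. The log2 fold change relative to all genes was -0.33 ± 0.19 (SE; limma-trend adjusted p = 0.313, limma-voom adjusted p = 0.236). It was -0.11 without library C and -0.56 without D. SNF3 had 71.6 and 68.3 TPM in ndt80 and 76.3 and 59.5 TPM in ndt80pch2, with a log2 fold change relative to all genes of 0.10 ± 0.15 (SE; limma-trend adjusted p = 0.868), whose sign turned without library C. Over all 8 tested members, 4 were lower and 1 higher with no overlap between the strains, beside 42.4% and 9.38% of all tested genes. That count is near the background and says nothing particular about the members.

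The libraries of ndt80pch2 differed from each other at the members. Of the 8 tested members, 6 were lower in D than in C, among them HXT4 with a log2 difference of -0.65 and HXT1 with -0.62, while HXT5 (0.37) and RGT2 (0.42) were higher in D. All 8 had an absolute difference between C and D above the median of 0.20 over all tested genes. Of all tested genes, 50.5% were lower in D than in C and 11.6% differed by at least as much as HXT1. The part of this library difference in the strain results was not tested.

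The bases before the start codon were searched in the R64 sequence for 3 motifs, on both strands and over 1000 bases. The Rgt1 motif was searched as CGGANNA. The Mig1 motif was searched as any of 4 words, namely CCGGGG and then CTGGGG together with GCGGGG and finally GTGGGG. The stress response element, the site of Msn2 and Msn4, was searched as AGGGG. The Mig1 and stress words share GGGG, but neither contains the other. Of 6638 genes with a full window, 66.5% held the Rgt1 motif at least once, 42.0% a Mig1 word and 54.5% the stress word. HXT3 had 9 Rgt1 matches and HXT1 had 8, as many as or more than any other of the 6638 genes. HXT5 had 4, a number reached by 3.45% of genes, HXT2, HXT4, HXT6 and GAL2 had 3 each (11%), and HXT7 had 2 (31.4%). SNF3 and RGT2 had none in this window. HXT2 and HXT4 each had 4 Mig1 matches, a number reached by 0.768% of genes, and HXT6 had 5 and HXT7 4 stress matches (0.678% and 2.20%). The match counts describe the reference sequence and do not show that a factor is bound.

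**Figure D4:**
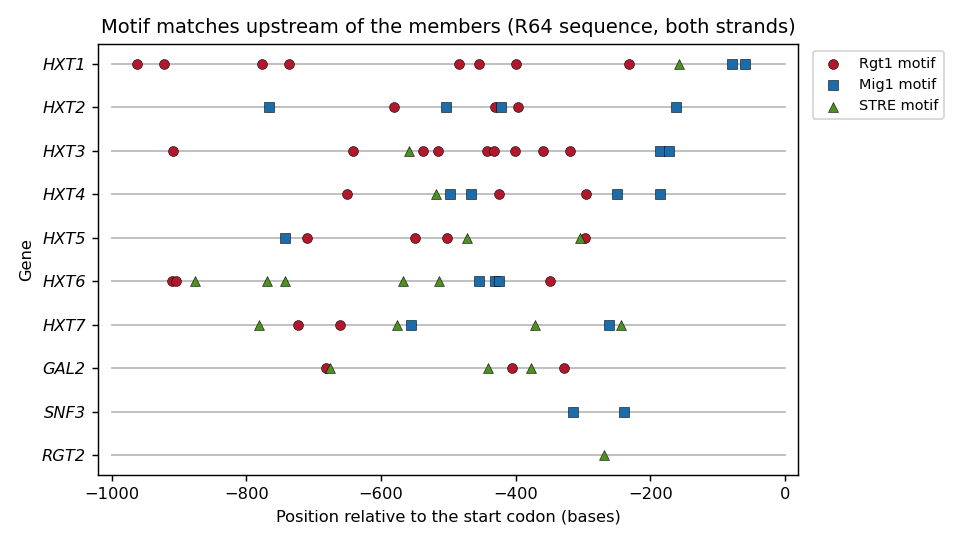
Position of each motif match in the 1000 bases before the start codon of each member, in bases relative to the start codon, on the R64 sequence and both strands. HXT1 (8) and HXT3 (9) carry the most Rgt1 matches, and SNF3 and RGT2 carry none.

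The densest Rgt1 stretches are printed for HXT1 and HXT3, the members with the lowest fold changes, and for HXT2 and HXT5, the most abundant by counted reads. Each runs 5′ to 3′ on the gene's own strand over 160 bases, and capitals mark CGGANNA or its reverse complement. The HXT1 stretch (chrVIII:292984-293143, minus strand) starts 518 bases before the start codon and the HXT3 stretch (chrIV:1164958-1165117, minus strand) 457 bases before it. The HXT2 stretch (chrXIII:287589-287748, plus strand) starts 490 bases and the HXT5 stretch (chrVIII:296890-297049, minus strand) 602 bases before the start codon.
HXT1: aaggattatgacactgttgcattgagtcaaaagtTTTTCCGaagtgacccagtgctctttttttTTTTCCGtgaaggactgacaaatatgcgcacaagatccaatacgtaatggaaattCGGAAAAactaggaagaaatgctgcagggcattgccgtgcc
HXT3: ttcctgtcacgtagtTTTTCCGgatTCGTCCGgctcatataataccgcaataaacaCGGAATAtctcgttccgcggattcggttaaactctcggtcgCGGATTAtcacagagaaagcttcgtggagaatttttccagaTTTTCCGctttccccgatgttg
HXT2: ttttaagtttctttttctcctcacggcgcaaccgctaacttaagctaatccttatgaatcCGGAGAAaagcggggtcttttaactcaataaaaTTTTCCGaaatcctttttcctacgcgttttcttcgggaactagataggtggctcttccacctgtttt
HXT5: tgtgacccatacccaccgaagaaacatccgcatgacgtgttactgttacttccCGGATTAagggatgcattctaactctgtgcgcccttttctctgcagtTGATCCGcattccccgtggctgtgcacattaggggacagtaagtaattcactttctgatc
The stretches hold 3 matches for HXT1, 5 for HXT3 and 2 each for HXT2 and HXT5.

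The genes that carry the signal from the sensors were described from a list of 10, all of them tested. None was called by limma-trend or limma-voom, and the median of the list was -0.08 relative to all genes. At an unadjusted p under 0.05 by limma-trend, 2 were lower (YCK1 and CYC8), beside 13.1% of all tested genes. MTH1, the corepressor that Grr1 marks for destruction when glucose is present, was the most abundant, with 309 and 264 TPM in ndt80 and 360 and 246 TPM in ndt80pch2. Its paralogue STD1 had 18.3 and 14.3 TPM in ndt80 and 17.6 and 8.21 TPM in ndt80pch2. The libraries of the strains overlapped for both. RGT1, the repressor itself, had 118 ± 0.329 TPM in ndt80 and 107 ± 0.218 TPM in ndt80pch2 (SD, n = 2), or 0.01 relative to all genes on the log2 scale (limma-trend adjusted p = 0.480).

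Of the kinases, YCK1 had 53.1 ± 2.64 and 40.4 ± 0.896 TPM (SD, n = 2; limma-trend adjusted p = 0.290) and its paralogue YCK2 had 112 ± 4.93 and 96.2 ± 1.80 TPM (0.338). GRR1 had 132 ± 4.16 and 123 ± 9.17 TPM. The general corepressor genes CYC8 and TUP1 had 109 ± 0.399 and 91.9 ± 1.55 TPM, and 93.1 ± 3.52 and 85.4 ± 8.81 TPM. MIG2 and MIG3, repressor genes related to MIG1, were low, with MIG2 at 10.6, 13.9, 8.70 and 5.73 TPM in libraries A to D and MIG3 at 12.3 ± 4.76 and 9.42 ± 2.86 TPM. MIG2, which glucose induces through Rgt1, had 21, 30, 14 and 9 reads (limma-trend adjusted p = 0.340). Its libraries did not overlap between the strains, nor did those of RGT1, YCK1, YCK2 and CYC8. These 5 of 10 genes, all lower in ndt80pch2, stand beside 42.4% of all tested genes.

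Around these genes, 6 further lists were examined, and 78 of 86 genes over all 7 lists were tested, each counted 1 time. Of them 0 were called by limma-trend and 0 by limma-voom, while 2 were higher and 10 lower at an unadjusted p under 0.05. That is 15.4% of the tested genes beside a background of 15.8%. By direction the background was 2.68% higher and 13.1% lower. Over the 17 tested genes of the Snf1 and Mig1 list the median relative to all genes was 0.00, with 0 higher and 4 lower at an unadjusted p under 0.05. GAL83, a Snf1 complex subunit gene, had 72.3 and 72.5 TPM in ndt80 and 47.8 and 42.0 TPM in ndt80pch2 (limma-trend adjusted p = 0.253). SIP2, another subunit gene, had 84.2 ± 2.82 and 65.4 ± 5.44 TPM (SD, n = 2). The genes of the list with the highest mean over all 4 libraries were GLC7, a phosphatase gene, with 536 and 554 TPM, and SIP4, an activator of gluconeogenic genes, with 509 and 580 TPM.

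Genes of hexose phosphorylation and upper glycolysis had the highest of the 7 list medians, 0.25 relative to all genes. At an unadjusted p under 0.05, 2 of 10 were higher, beside 2.68% of all tested genes. Of the 10, 3 lay below the median of all genes. HXK1, the hexokinase gene expressed when glucose is low, stood at 2519 and 2250.0 TPM in ndt80 and 3616 and 3068 TPM in ndt80pch2 (limma-trend adjusted p = 0.286, limma-voom adjusted p = 0.0538). EMI2, related to glucokinase, stood at 262 and 259 TPM in ndt80 and 337 and 310.3 TPM in ndt80pch2 (limma-trend adjusted p = 0.286). For neither gene did the strains overlap. Over the list, 4 genes were higher and 1 lower without overlap, beside 9.38% and 42.4% of all tested genes. PFK2, a phosphofructokinase subunit gene, had 416 ± 33.7 and 406 ± 28.6 TPM (SD, n = 2).

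Most other sugar carriers were low. Of 15 listed, 14 had values and 8 were tested, with 0 called and a median of 0.13 relative to all genes. HXT11, HXT15, HXT16, HXT17, MAL11 and MPH2 were under the 1 TPM minimum. STL1, a glycerol symporter gene, led the list with 1153 ± 26.1 and 1095 ± 87.2 TPM (SD, n = 2). MAL31, a maltose permease gene, had 53.6 ± 2.13 and 56.9 ± 12.6 TPM. HXT14, with 38.0 and 43.2 TPM in ndt80 and 43.5 and 57.2 TPM in ndt80pch2, was the highest HXT gene outside the members.

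The remaining lists showed no call. Their counts at an unadjusted p under 0.05 stand beside 13.1% of all tested genes lower and 2.68% higher. The cAMP and protein kinase A list had a median of 0.06 over 16 genes, with 3 lower at an unadjusted p under 0.05, among them GPA2 (128 ± 4.94 and 95.1 ± 17.9 TPM) and TPK3 (25.2 ± 2.01 and 13.8 ± 5.74 TPM; SD, n = 2). Its most abundant genes IRA2 and PDE2 had 444 and 325 TPM in ndt80 and 429 and 309 TPM in ndt80pch2. Galactose genes had a median of 0.16 over 6 tested genes. GAL7, an enzyme gene of galactose use, had 14, 22, 3 and 13 reads in libraries A to D, and GAL4, the activator gene, had 37.2 ± 1.05 and 36.0 ± 0.223 TPM. The abundant PGM2, a phosphoglucomutase gene, had 482 ± 49.8 and 606 ± 97.5 TPM. The arrestin and ubiquitin ligase list, whose proteins remove carriers from the cell surface, had a median of 0.06 over 12 genes, with 1 lower at an unadjusted p under 0.05, BUL1 (47.0 ± 1.65 and 36.1 ± 2.53 TPM). CSR2 and RSP5, its most abundant genes, had 478 and 364 TPM in ndt80 and 465 and 358 TPM in ndt80pch2, and ECM21 had 184 and 208 TPM.

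**Figure D5:**
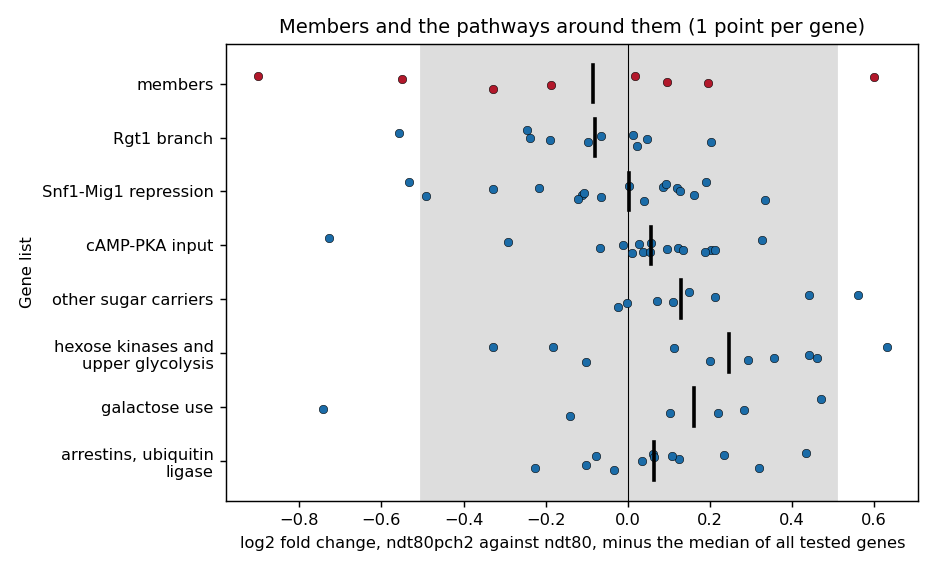
log2 fold change, ndt80pch2 against ndt80, minus the median of all tested genes, 1 point per tested gene in the members (red) and 7 lists around them (blue), with black bars at list medians and a grey band from the 5th to the 95th percentile of all tested genes. The members span -0.90 to 0.60, and list medians lie between -0.08 and 0.25.

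The genes most like HXT1 over the 4 libraries were found by the Euclidean distance between log2(TPM + 1) profiles, each centred on its own mean. MRP2 was nearest at 0.140, with 46.8, 44.3, 28.7 and 18.9 TPM in libraries A to D. MSS1 followed at 0.164 and YOR062C at 0.166. The distance was not tested.

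The deposited ndt80 column reads differently if taken row by row. From its first mitochondrial row, each value averages the listed gene in library A with another gene in library B. The HXT1 row averages HXT1 with HXT7 and lists 323 TPM, against a separated mean of 248 TPM. The HXT5 row averages HXT5 with ICL2 and lists 2059 TPM, against 3814 TPM, and the HXT2 row lists 1207 TPM with IBD2, against 2172 TPM. The HXT6 row lists 10.4 TPM, the average of 0 for HXT6 in library A and the ICP55 level in library B. The listed value thus comes from ICP55 alone and lies below the ICP55 level in library B.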

How the data were processed

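Messenger RNA of 2 yeast strains was sequenced, with 2 samples each. The submitters' processing notes name the R64 build and, with no role or order, DESeq2 2.11.40.6, HTSeq 0.9.1, HISAT2 2.1.0 and FastQC. The authors deposited 1 unnamed TPM-like column per strain, whose unit was inferred from the values.

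Times coding length, 99.9% of ndt80pch2 values above 0 were sums of whole multiples of 2 fixed steps, within 0.55 of the last printed digit. From row 94, the ndt80 column had such sums for 9.40% of values read row by row, 9.29% with a random gene's length, and 99.63% when library B was read against a gene list from which the 18 mitochondrial genes had been dropped. Values were solved on this reading, which gave 6610 of 6664 nuclear genes reads in all 4 libraries. The other 54 were left out. Of 12 genes with no solution at the annotated length, 6 were given the 1 length that solved. The solving and the fit were also run on simulated data, with outcomes that are not given here. For the fit, the simulated spread was shuffled among genes, unlike in the data.

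Genes with a mean TPM of at least 1 entered a limma-trend fit of log2(TPM + 1) on genotype, with 2 residual degrees of freedom (R 4.3.3, limma 3.58.1). Alternatives are in the closing section. Intervals rest on the spread between libraries in the fit, and floors, set at 3 reads, cover counting error only. Members and lists were chosen with earlier results of these data known. Named genes are the members, the Rgt1 branch, the 2 most abundant genes and the 2 of smallest p in each other pathway list, and the 3 profiles nearest to that of the member with the largest fold change. Of 6664 gene IDs, 5989 were found in the RefSeq R64 table and 5981 had the same coordinates. Python 3.11.15 and Biopython 1.88 were used.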

Additional observations from a re-analysis of the deposited data

How the results depend on the processing

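Over 10 alternatives chosen with the design, HXT1, HXT3, HXT7 and RGT2 kept a negative and HXT2 and HXT5 a positive log2 fold change relative to all genes, though HXT7 came as near to 0 as -0.056 (without A) and HXT2 as 0.01 (without C). Under 9 of them 0 members were called, while limma-voom on all libraries called 1, HXT1; 0 pathway genes were called under all 10. Leaving out 1 library in turn, by limma-trend or limma-voom, gave 0 to 5 called members and 0 to 6 called pathway genes. The limma-voom fits without a library were chosen after seeing the data, and the lone library of a strain was assumed to vary like the other strain. They called 0 members without A or B, 5 without C (HXT1, HXT3, HXT4, HXT5 and HXT7) and 2 without D (HXT1 and RGT2), among 409 and 119 genes called without C and D. The cause was not tested. HXT4 reversed to -0.014 with no filter on low values. It reversed to -0.055 (limma-trend) and -0.058 (limma-voom) without B, and to -0.30 by both without C. SNF3 reversed without C, to -0.076 and -0.077. The highest values over these fits were 0.32 for HXT4 and 0.26 for SNF3, both without D, by limma-voom, against 0.25 for SNF3 by limma-trend. With the deposited columns taken row by row, which mixes genes, HXT4 was -0.55, HXT7 0.54, SNF3 -0.078 and RGT2 0.15. Summing HXT6 and HXT7 could move no value, because HXT6 had 0 reads in every library. That alternative repeats the main fit and is no separate check among the 10. No paired analysis was possible because the deposited columns carry no replicate numbers. Depth limits GAL2, with at most 6 reads per library.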
